A study of Mus musculus with 12 samples.

Results

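A set of 76 protein-coding genes was at 5 CPM (a gene's counts in 1000000 counts of the library) or more in each of the 4 untreated B16 melanoma libraries and under 0.2 CPM in both untreated Melan-A libraries. The members were chosen by these untreated levels, out of 19024 protein-coding genes and 34513 genes in the table. The untreated difference between B16 and Melan-A cells is therefore a description and carries no test. The natural comparison set was the 9355 protein-coding genes that met the B16 limit alone, of which the 76 are part.

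RNA was sequenced from cultures of 3 mouse cell lines, each untreated and with SX-682, an inhibitor of the chemokine receptors CXCR1 and CXCR2. Melan-A is an immortal, non-tumorigenic melanocyte line, and B16F0 and B16F10 are tumorigenic melanoma lines that descend from the same mouse tumor, so each cell state is represented by 1 line or by 2 related lines. The 6 groups, untreated Melan-A, Melan-A with SX-682, untreated B16F0, B16F0 with SX-682, untreated B16F10 and B16F10 with SX-682, had 2 libraries each. The labels name no allele, dose or time, call the controls untreated, and do not say whether replicates were separate cultures, so p-values measure only the spread between these libraries, which may be technical.

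Library totals were between 48876982 and 85322092 counts, and within each group the pair of libraries was further apart than counting noise allows (chi-square of 2.82 to 4.97 per gene). The line labels were read against 10 melanocyte markers. Melan-A libraries expressed Sox10 (696 to 812 CPM), Dct (289 to 381 CPM), Tyrp1 (112 to 154 CPM), Mlana (107 to 127 CPM) and Mitf (84 to 110 CPM). Pmel (8.01 to 9.26 CPM) and Slc45a2 (6.42 to 7.93 CPM) were lower there. Tyr was under 1 CPM in all 4 Melan-A libraries (0.273 to 0.948 CPM) against 16.5 to 515 CPM in B16, and Oca2 was at 0.1 to 0.234 CPM in Melan-A. Kit was at 4 to 25 counts in Melan-A, 2.6 to 4.35 CPM in B16F0 and at most 0.047 CPM in B16F10. The summed level of the 10 markers was 1437 to 1471 CPM in Melan-A and 14504 to 23581 CPM in B16. Markers of other cell types were also present. The fibroblast list summed to 101 to 123 CPM in Melan-A and 119 to 183 CPM in B16. Most of the B16 sum came from Fbln1, a gene that the rule had selected. Fbln1 was at 167 CPM of 183 CPM in untreated B16F0 and 118 to 122 CPM of 127 to 130 CPM in untreated B16F10. In Melan-A, Fbln1 was at most 0.242 CPM. The Schwann and neural crest list summed to 224 to 384 CPM in Melan-A and 99.3 to 236 CPM in B16. Ngfr, also of the set, gave 101 CPM of 234 CPM in untreated B16F10 and 8.62 to 9.17 CPM of 145 CPM in untreated B16F0. The macrophage list summed to 26.7 and 26.9 CPM in untreated Melan-A, 54.8 and 56.3 CPM in Melan-A with SX-682, and 10.3 to 25.3 CPM in B16. The keratinocyte list was at 3.55 to 6.4 CPM in Melan-A and at most 0.721 CPM in B16, and the endothelial list at 1.59 to 2.69 CPM and at most 1.08 CPM. The part of these lists in the results was not tested. The receptors that SX-682 blocks were close to 0 in B16, with at most 1 count of Cxcr2 and 5 counts of Cxcr1 in any of the 8 B16 libraries, and at 34 to 79 counts of Cxcr2 in Melan-A.

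Melanocytes come from the neural crest, and melanoma cells are known to move between a pigmented state and states that express neural crest genes such as Ngfr. Many developmental regulators, germline genes and cell surface genes have promoters rich in CpG dinucleotides, which are sites of DNA methylation in mammals.

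The 76 genes together made up 4.14 and 4.25 CPM of the 2 untreated Melan-A libraries and 3607 to 4046 CPM of the 4 untreated B16 libraries. Their mean untreated B16 level ran from 7.12 CPM for Isoc2b to 650 CPM for Syt4, with a median of 29.1 CPM, and 8 genes were at 100 CPM or more. In Melan-A, 10 genes had 0 counts in both untreated libraries (Brs3, Chic1, Galk1, Gja3, Gpm6a, Gspt2, Marveld1, Tmem136, Tysnd1 and Zfp518b), 26 had at most 3 counts in each, and the largest count of any of the 76 was 17. With Melan-A raised to a floor of 3 counts in each library, which covers counting error only, the untreated levels of B16 over Melan-A had a median ratio of 523 and lay between 47.5 for Smpdl3b and 6370 for Syt4, both of which were above the floor. In bulk cultures, fewer expressing cells and less RNA per cell cannot be told apart.

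**Figure D1:**
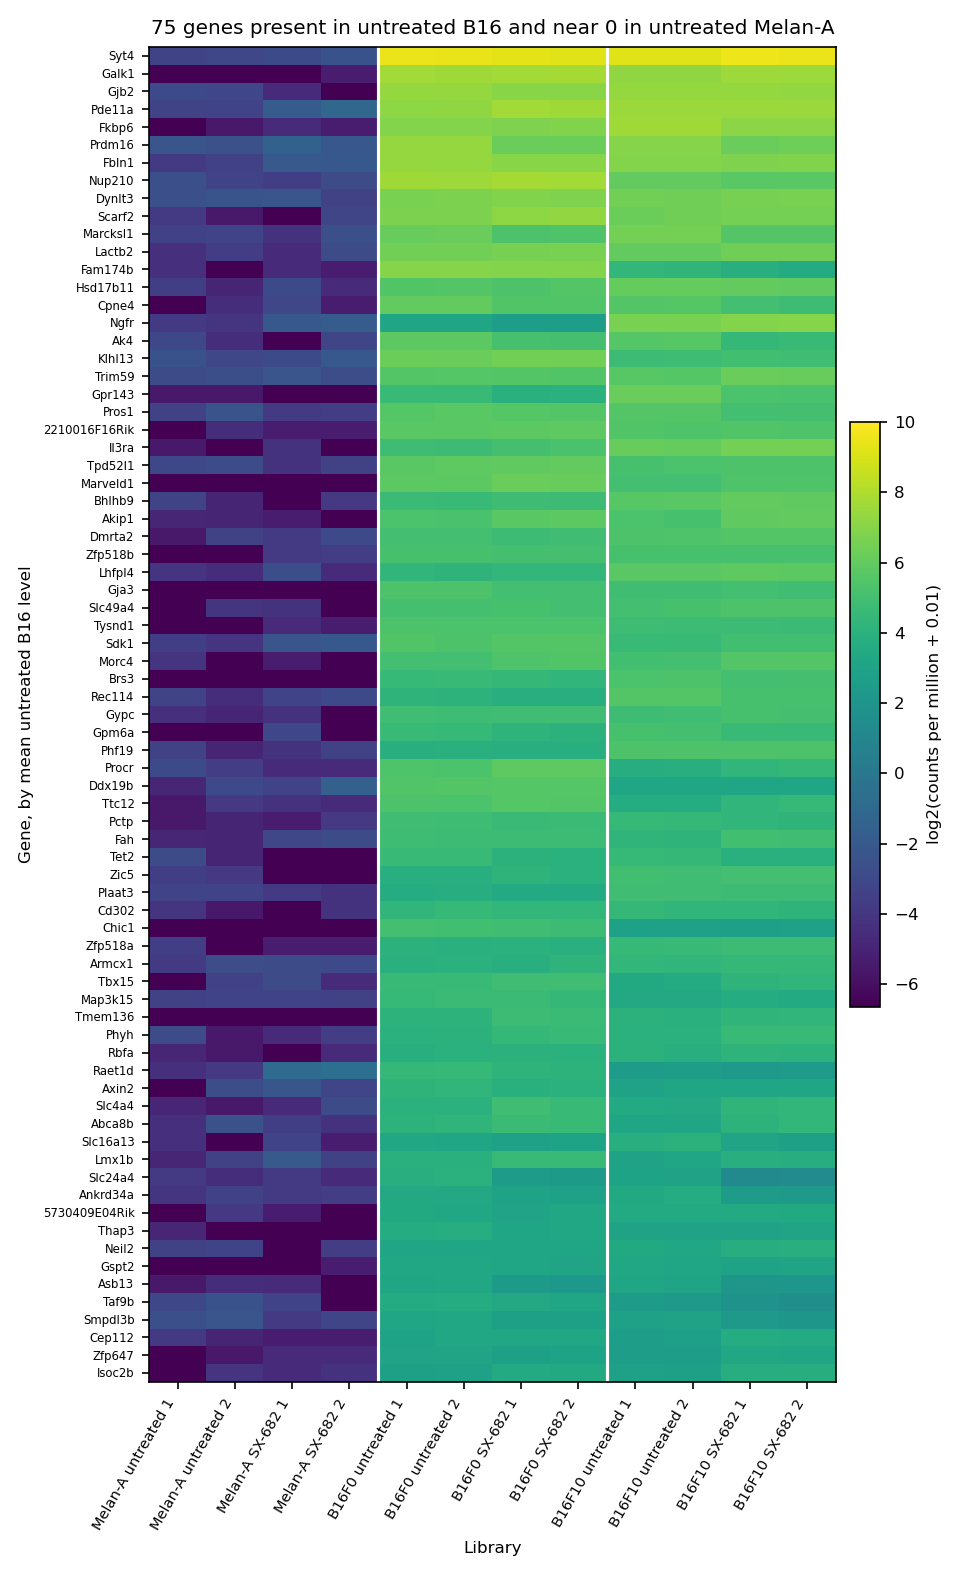
Levels of 75 of the 76 genes (vertical axis, ordered by mean untreated B16 level) in the 12 libraries (horizontal axis), as log2 of CPM plus 0.01. The 4 Melan-A columns on the left are dark for every gene, and the 8 B16 columns are between 2.4 and 750 CPM.

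Per kilobase of exon, the most abundant of the 76 genes in untreated B16 was Syt4, a synaptotagmin of vesicle traffic on chromosome 18, at 167 CPM per kb. Syt4 was counted at 719 and 711 CPM in untreated B16F0, 584 and 585 CPM in untreated B16F10, and 8 and 9 counts in untreated Melan-A. Of its exonic bases, 14.5% lie under another annotated gene. Galk1, the galactokinase that begins galactose breakdown, stood at 125 CPM per kb, with 205 and 196 CPM in B16F0, 151 and 149 CPM in B16F10, and 0 counts in both untreated Melan-A libraries. Fkbp6, a co-chaperone known from germ cells, stood at 91.5 CPM per kb and had 0 and 1 counts in untreated Melan-A. Gjb2, which encodes the gap junction protein connexin 26, stood at 69 CPM per kb, with 164 to 168 CPM across the 4 untreated B16 libraries and 10 and 9 counts in untreated Melan-A.

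Of the other 6 of the 10 most abundant genes per kilobase, Marcksl1, an actin-binding protein of the MARCKS family, stood at 51.5 CPM per kb, Dynlt3, a dynein light chain, at 36.8, Tpd52l1 at 35, and Fbln1, the matrix glycoprotein fibulin-1, at 32.8. Pde11a, a phosphodiesterase of cAMP and cGMP, stood at 31.4 CPM per kb, and Akip1, a partner of protein kinase A, at 29.1. Fbln1 also stands on the fibroblast list used here, of which Col1a1, Col1a2 and Pdgfra were also over 1 CPM in untreated B16 of both lines, while Dcn, Lum and Thy1 were at or under 3 counts in every untreated B16 library.

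The limits of the rule cut through a continuum of levels. Inside the B16 limit, the lowest library was at 5.06 CPM for Taf9b, 5.5 CPM for Raet1d and 6.14 CPM for Cep112. Just outside it were Etfbkmt at 4.91 CPM, Mocos at 4.89 CPM and Spata7 at 4.76 CPM. At the Melan-A limit, the highest untreated library was at 0.199 CPM for Smpdl3b, 0.197 CPM for Prdm16 and 0.188 CPM for Pros1 inside, and at 0.209 CPM for Trim25, 0.211 CPM for Dkk3 and 0.222 CPM for Hoxb9 outside.

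Whether the difference between the lines held in libraries that the rule had not used was asked with the SX-682 libraries. All 76 genes were called higher in B16 with SX-682 than in Melan-A with SX-682, where 34.0% of the genes tested were called higher in B16, and for all 76 the 4 B16 libraries lay above both Melan-A libraries. The fitted log2 differences had a median of 9.32 and ran from 4.14 for Raet1d to 14.95 for Marveld1. With Melan-A raised to the floor of 3 counts, the median was 8.69 and the lowest value 4.21, against a fitted median of 0.08 in the comparison set. Both limits of the rule were also met by 61 of the 76 genes in the SX-682 libraries, which is 80.3% of the set and 68.5% of the 89 protein-coding genes that met them there. Ankrd34a, Asb13, Slc24a4, Smpdl3b and Taf9b fell under 5 CPM in a B16 library, and 10 genes reached 0.2 CPM in a Melan-A library. SX-682 and untreated libraries came from the same 3 lines, so this repeats the libraries and not the lines.

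Brs3, Chic1, Gja3, Marveld1 and Tmem136 had 0 counts in all 4 Melan-A libraries. Brs3, an orphan receptor of the bombesin family on the X chromosome, was at 20.1 to 41.2 CPM in the 8 B16 libraries. Gja3, which encodes the lens gap junction protein connexin 46, was at 30.2 to 40.3 CPM, and Marveld1, a membrane protein with a MARVEL domain, at 33.1 to 73.7 CPM. Chic1 was at 6.8 to 32.4 CPM and Tmem136 at 15.3 to 26.8 CPM.

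The positions of the genes were examined for runs of neighbors that shared the pattern. The 76 genes lay on the X chromosome and on every autosome except 17, and only 4 had another member within 500 kb, in the pairs Gja3 with Gjb2 and Cep112 with Axin2. Within 2 Mb, 13 genes had another member. Coordinates are those of the deposited table on GRCm38, which were the same in GENCODE release M21 for 75 of the 76 genes.

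Gja3 (chr14:57034460-57058100, minus strand) and Gjb2 (chr14:57098600-57104702, minus strand) are 40.5 kb apart and both encode connexins. Gja3 was at 40.3 and 40.2 CPM in untreated B16F0, 30.2 and 30.3 CPM in untreated B16F10, and 0 counts in both untreated Melan-A libraries. The genes on either side were outside the set, so by the rule they could not meet both limits. Zmym2 was at 55.7 and 59.9 CPM in untreated Melan-A and 65.6 to 69.2 CPM in untreated B16, and the third connexin gene of the locus, Gjb6, was at most 0.146 CPM in all 6 untreated libraries. Cep112, a centrosomal protein gene, and Axin2, a feedback inhibitor and target of Wnt signaling, are 59.7 kb apart on chromosome 11. Axin2 was at 18.3 and 19.9 CPM in untreated B16F0, 7.53 and 8.99 CPM in untreated B16F10, and 0 and 12 counts in untreated Melan-A. On the other side of Cep112, Apoh lay 10.8 kb away and was at 0.714 and 0.551 CPM in untreated Melan-A and at most 0.0292 CPM in untreated B16, and Prkca, beyond it, stood at 110 and 114 CPM in untreated Melan-A and 17 to 25.4 CPM in untreated B16.

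**Figure D2:**
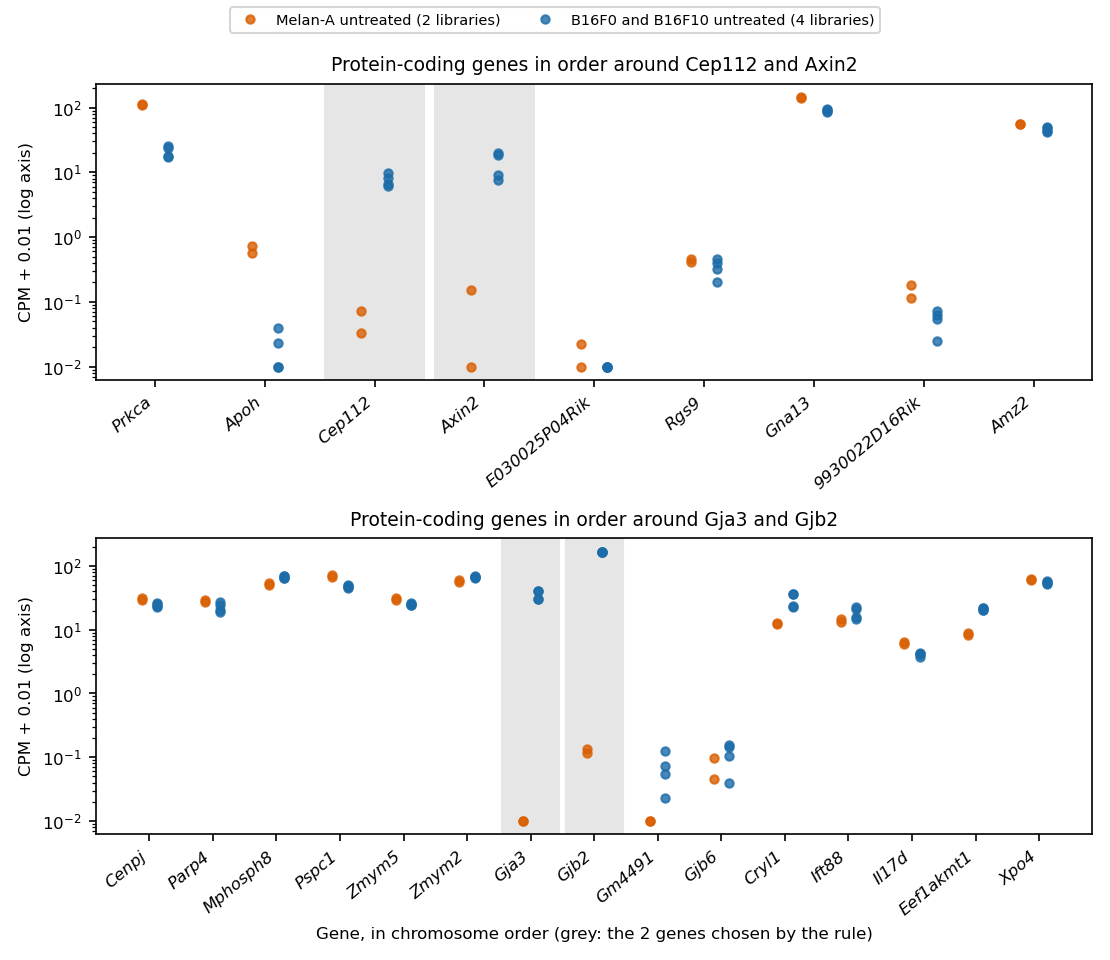
Untreated levels of the protein-coding genes around the closest pairs, in chromosome order (horizontal axis) and as CPM plus 0.01 on a log axis (vertical axis), with 1 dot per library. The shaded genes are those the rule chose, with B16 libraries at 6.14 CPM or more and both Melan-A libraries under 0.2 CPM. By the rule, no other protein-coding gene shown could meet both limits.

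Of the 148 nearest protein-coding neighbors that were not themselves in the set, 79 were at 5 CPM or more on average in both untreated Melan-A and untreated B16. At least 1 neighbor was at 5 CPM or more in untreated Melan-A for 63 of the 76 genes. Matching shares for the neighbors of other genes are not given, so these counts do not set the genes apart from others. A neighbor that met both limits in every untreated library would itself be in the set, so the rule left little room for such neighbors. By average level, only Epha3 (beside Pros1) and Acpp (beside Cpne4) reached 5 CPM in untreated B16 and stayed under 0.2 CPM in untreated Melan-A. They averaged 103 and 30.4 CPM in untreated B16 and 0.142 and 0.173 CPM in untreated Melan-A. For each, the higher untreated Melan-A library was at 0.223 CPM, over the limit. Ankfn1, beside Pctp, was at 105 CPM in untreated B16 and 0.744 CPM in untreated Melan-A. Several other genes of the set lay close to genes expressed in Melan-A. Pdha1 and Nptn, whose genes overlap Map3k15 and Rec114, were at 204 and 126 CPM on average in untreated Melan-A. Hdac1, whose gene lies 0.119 kb from Marcksl1, was at 269 CPM on average in untreated Melan-A. Smc4, 0.665 kb from Trim59, was at 284 CPM. The gene nearest to Galk1, Itgb4 at 0.045 kb, was at 3.11 CPM, and H3f3b, 9.19 kb away on the other side, at 1599 CPM.

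Akip1 was the only gene of the 76 whose annotated start lay within 1 kb of the start of a protein-coding gene on the other strand, which is 1.32% of the set, against 18.3% (1708 genes) of the comparison set. Its partner St5 starts 85 bases away and was at 61.7 and 62.3 CPM in untreated Melan-A and 56.3 to 69 CPM in untreated B16. Akip1 was at 2 and 2 counts in untreated Melan-A and at 36 to 39.5 CPM in untreated B16. The long noncoding genes Dmrta2os beside Dmrta2 and C130021I20Rik beside Lmx1b, both divergent, were at 0 and 0.0117 CPM on average in untreated Melan-A and 1.22 and 4.05 CPM in untreated B16.

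Promoter windows from 250 bases before to 50 bases after a start, from RefSeq on GRCm38.p6, matched 63 of the 76 genes by symbol. The windows of the connexin pair, of Galk1 and of Akip1 are shown 5′ to 3′ along the gene's strand, with each CpG in capitals. The connexin genes are the closest pair of the set. Galk1 and Akip1 had few or no reads in untreated Melan-A while a close neighbor was expressed.
Gja3 (chr14:57057981-57058280, minus strand): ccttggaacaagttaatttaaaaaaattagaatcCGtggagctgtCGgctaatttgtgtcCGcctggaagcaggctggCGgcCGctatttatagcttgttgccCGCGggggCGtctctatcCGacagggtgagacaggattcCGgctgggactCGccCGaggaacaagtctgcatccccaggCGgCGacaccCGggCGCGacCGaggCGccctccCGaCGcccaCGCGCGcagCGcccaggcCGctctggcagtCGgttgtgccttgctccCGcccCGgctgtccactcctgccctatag
Gjb2 (chr14:57104653-57104952, minus strand): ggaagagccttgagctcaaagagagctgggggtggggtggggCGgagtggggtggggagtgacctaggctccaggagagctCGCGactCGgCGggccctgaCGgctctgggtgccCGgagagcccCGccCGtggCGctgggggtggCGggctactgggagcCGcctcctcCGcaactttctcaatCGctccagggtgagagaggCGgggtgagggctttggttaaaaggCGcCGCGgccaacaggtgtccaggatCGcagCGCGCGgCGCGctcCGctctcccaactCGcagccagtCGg
Galk1 (chr11:116012670-116012969, minus strand): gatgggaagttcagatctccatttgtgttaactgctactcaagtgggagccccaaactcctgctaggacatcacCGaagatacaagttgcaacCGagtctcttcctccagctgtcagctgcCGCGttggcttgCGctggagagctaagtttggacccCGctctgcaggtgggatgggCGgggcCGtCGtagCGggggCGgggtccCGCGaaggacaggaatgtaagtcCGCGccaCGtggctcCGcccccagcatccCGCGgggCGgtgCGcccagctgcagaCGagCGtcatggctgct
Akip1 (chr7:109703428-109703727, plus strand): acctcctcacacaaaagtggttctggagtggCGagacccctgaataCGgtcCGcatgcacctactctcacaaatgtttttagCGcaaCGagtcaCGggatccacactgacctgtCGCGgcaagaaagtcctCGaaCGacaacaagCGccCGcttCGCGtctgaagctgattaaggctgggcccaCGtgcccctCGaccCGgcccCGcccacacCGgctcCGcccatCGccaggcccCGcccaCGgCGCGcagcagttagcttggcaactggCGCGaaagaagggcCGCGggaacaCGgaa

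These windows held 29 CpGs for Gja3, 27 for Gjb2, 23 for Galk1 and 30 for Akip1, and their ratios of observed to expected CpG were 0.966, 0.76, 0.783 and 1.04. The same ratio had a median of 0.742 over the 63 windows, 0.809 over the 7643 windows matched in the comparison set and 0.384 over all 32851 windows of the table. It was 0.6 or more in 68.3% of the windows of the set and in 81.5% of those of the comparison set. The palindrome CACGTG, the core E-box bound by many basic helix-loop-helix factors, occurred in 13 of the 63 windows (20.6%), among them those of Galk1 and Akip1 printed above, in 11.1% of the comparison set and in 7.15% of all windows. It had the largest excess of the motifs counted. In the set and the comparison set, CCAAT boxes occurred in 39.7% and 39.4%, GC boxes in 73% and 69.7%, and TATA boxes in 4.76% and 5.82%. The core CATGTG occurred in 3.17% and 7.44%, CRE sites in 0% and 3.47%, and AP-1 sites in 4.76% and 2.97%. These motif shares were not tested. DNA methylation was not measured in these libraries.

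The X chromosome held 11 of the 76 genes, which is 14.5% of the set against 2.86% of the comparison set. Put the other way, the rule was met by 4.1% of the 268 genes of the comparison set on the X chromosome and by 0.715% of the 9087 on autosomes. The mirrored rule, at 5 CPM or more in both untreated Melan-A libraries and under 0.2 CPM in the 4 untreated B16 libraries, was met by 1.66% of X-linked and 1.69% of autosomal genes at that Melan-A level. In the SX-682 libraries, the other genes of the comparison set differed between B16 and Melan-A by a median log2 of 0.07 on the X chromosome and of 0.07 on autosomes. No test was made of these shares. The 11 genes were Armcx1, Bhlhb9, Brs3, Chic1, Dynlt3, Gpr143, Gspt2, Klhl13, Map3k15, Morc4 and Taf9b. Gpr143 encodes a melanosome receptor mutated in ocular albinism. It was at 24.5 to 74 CPM in untreated B16 and at 1 and 1 counts in untreated Melan-A.

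By name patterns written for gene families, 7 of the 76 genes were ion channels or transporters, which is 9.21% of the set against 2.43% of the comparison set. They were the connexins Gja3 and Gjb2, the bicarbonate transporter Slc4a4, the sodium-calcium exchanger Slc24a4, the lysosomal protein Slc49a4, Slc16a13 of the monocarboxylate transporter family and Abca8b of the ABC family. Patterning transcription factors included Lmx1b, Tbx15 and Zic5. Zinc-finger genes were 4 (Prdm16, Zfp518a, Zfp518b and Zfp647), or 5.26% against 3.06%, and surface receptors were 3 (Cd302, Gpr143 and Il3ra), or 3.95% against 1.03%. No gene of the set matched the patterns for germline genes, secreted ligands or cytoskeletal genes, which made up 0.299%, 0.396% and 1% of the comparison set. The patterns read symbols only, and none matched 50 of the genes. Among these were the germ cell genes Fkbp6 and Rec114, the dynein light chain Dynlt3 and the receptors Ngfr, Brs3, Procr and Scarf2. The shares thus undercount such functions in the set. These shares describe the list and were not tested.

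Lmx1b, a LIM homeobox gene of limb patterning, was at 15 and 15.2 CPM in untreated B16F0, 7.56 and 8.81 CPM in untreated B16F10, and 2 and 7 counts in untreated Melan-A. Tbx15, a T-box gene of skeletal and skin patterning, was at 24.5 and 23.8 CPM, 11 and 12 CPM, and 0 and 7 counts in the same order. Both were thus lower in B16F10 than in B16F0 without overlap. Zic5, a zinc-finger gene of neural crest development, ran the other way, at 14 and 14.7 CPM in B16F0 and 31 and 29.8 CPM in B16F10, with 6 and 5 counts in Melan-A.

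Other genes of the set act on chromatin and transcription. Tet2, a dioxygenase that oxidizes methylated cytosine, was at 21.3 to 24.3 CPM in untreated B16 and at 11 and 2 counts in untreated Melan-A. Phf19, a Polycomb-like partner of the PRC2 complex, was at 14.2 to 40.7 CPM in untreated B16. Prdm16, one of the zinc-finger genes above and a transcriptional regulator known from brown fat and stem cells, was at 126 to 165 CPM and, with 16 and 14 counts in untreated Melan-A, close to the limit of the rule.

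The metabolic genes were spread over pathways. Besides Galk1, they included Fah, the last enzyme of tyrosine catabolism (18.5 to 28.4 CPM in untreated B16), Phyh, the peroxisomal phytanoyl-CoA hydroxylase (15.5 to 16.4 CPM), Ak4, a mitochondrial adenylate kinase (49.7 to 55.3 CPM), and Hsd17b11, a hydroxysteroid dehydrogenase (44.7 to 67.6 CPM). All of these had at most 11 counts in each untreated Melan-A library. Close paralogs limit some values, since Ddx19b has the neighbor Ddx19a at 50.3 CPM in untreated Melan-A, and Raet1d, a ligand of the NKG2D receptor of natural killer cells, shares 25.2% of its exonic bases with Raet1e. Reads of such genes could be split differently by another counting program. More than 10% of exonic bases were also shared by Rbfa (43.9%), Rec114 (26.9%), Fam174b (16.2%) and Map3k15 (13.9%).

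Surface and secreted proteins of other families made up a further group. Il3ra, the alpha chain of the interleukin-3 receptor, was at 28.7 and 27 CPM in untreated B16F0, 69.3 and 67.6 CPM in untreated B16F10, and 1 and 0 counts in untreated Melan-A. Scarf2, a scavenger receptor, was at 78 to 106 CPM in untreated B16 and at 5 and 1 counts in untreated Melan-A. Procr and Pros1, which encode the protein C receptor and protein S of the anticoagulant pathway, were at 13.4 to 42.1 CPM and at 46.4 to 53.2 CPM in untreated B16. Sdk1, an adhesion protein of the immunoglobulin family, was at 25.2 to 43.7 CPM, and Gpm6a, a neuronal membrane glycoprotein, at 22.9 to 35 CPM.

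Besides Fkbp6, the set held Rec114, a gene of meiotic recombination, at 17.8 and 17.3 CPM in untreated B16F0, 45.9 and 46 CPM in untreated B16F10, and 8 and 3 counts in untreated Melan-A. Genes of nuclear and nucleic acid processes included Nup210 at 65.1 to 199 CPM and Neil2, a DNA glycosylase of base excision repair, at 8.72 to 11 CPM. Gspt2, a translation termination factor without introns on the X chromosome, was at 9.41 to 9.87 CPM and had 0 counts in both untreated Melan-A libraries.

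How the set differed between the B16 lines was asked in the untreated libraries, on which the rule placed the same limit in both lines. In untreated B16F10 against untreated B16F0, 24 genes were called higher, or 31.6% of the set, where 30.8% of all genes tested and 44.9% of the comparison set were called higher. Called lower were 36 genes, or 47.4%, where 31.2% of all genes tested and 35.9% of the comparison set were called lower. The median log2 difference was -0.06 in the set and 0.05 in the comparison set, and the median absolute difference was 0.46 and 0.30. A difference of at least 1 on the log2 scale was reached by 9 of the genes called higher and 12 of those called lower. Whatever the call, it was reached by 21 of the 76 genes, 5057 of the 18338 genes tested and 600 of the 9355 in the comparison set.

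Ngfr, the low-affinity nerve growth factor receptor of neural crest cells, had the largest difference. It was at 9.17 and 8.62 CPM in untreated B16F0 and at 101 and 101 CPM in untreated B16F10, a log2 difference of 3.60 (adjusted p = 2.5e-30). Of the other Schwann and neural crest markers listed, Sox2 and Foxd3 were at or under 3 counts in the untreated libraries of both B16 lines. Gpr143 followed, with 24.9 and 24.5 CPM against 72.7 and 74 CPM (log2 1.66, adjusted p = 2.7e-21). Lhfpl4, a partner of GABA-A receptors, differed by 1.58 and Phf19 by 1.54 on the log2 scale.

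Fam174b had the largest fall, from 127 and 124 CPM in untreated B16F0 to 20.5 and 19.3 CPM in untreated B16F10, a log2 difference of -2.57 (adjusted p = 7.1e-27). Ddx19b, an RNA helicase of messenger RNA export, was at 44.5 and 46.3 CPM against 8.95 and 8.93 CPM (log2 -2.25). Chic1 differed by -2.03 and Raet1d by -1.80 on the log2 scale. For each of these 8 genes the libraries of the lines did not overlap.

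**Figure D3:**
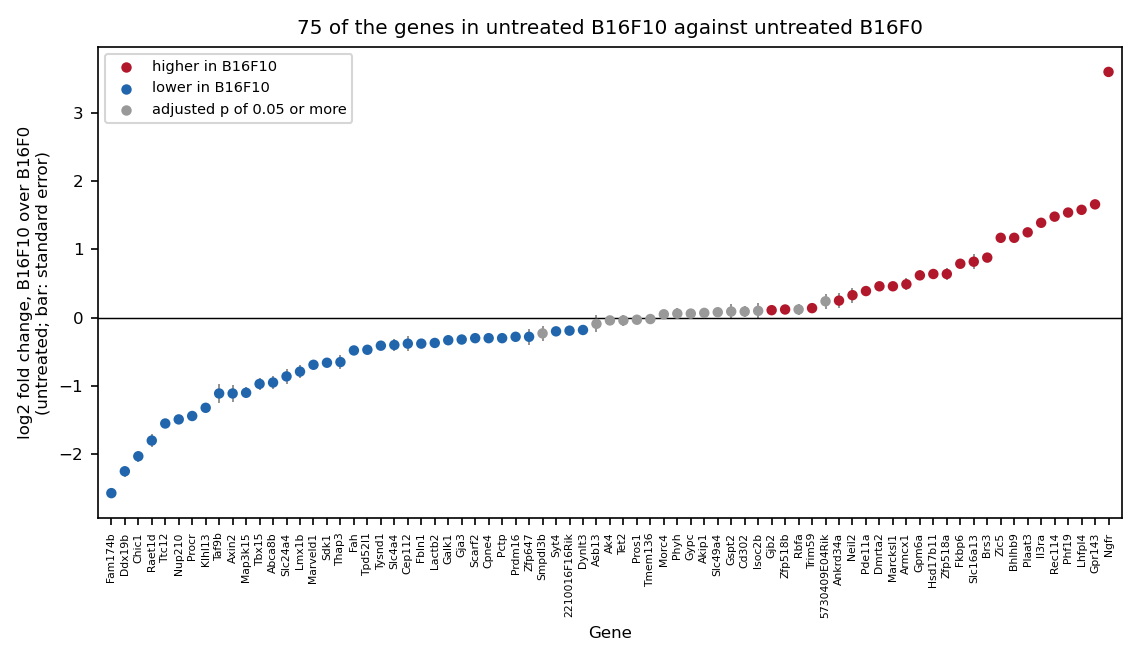
Log2 fold change of untreated B16F10 over untreated B16F0 (vertical axis, with standard errors) for 75 of the 76 genes (horizontal axis), colored by call at an adjusted p of 0.05. The values run from -2.57 for Fam174b to 3.60 for Ngfr.

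The change with SX-682 was compared with untreated cells within each B16 line. The untreated libraries are those the rule used, and the SX-682 libraries are not. In B16F0, 25 genes rose (32.9% of the set), where 25.1% of all genes tested and 34.8% of the comparison set rose, and 25 fell, where 25.0% and 39.8% fell. In B16F10, 32 genes rose (42.1%), where 25.5% of all genes tested and 36.0% of the comparison set rose, and 22 fell (28.9%), where 25.3% and 41.0% fell. The median log2 change was -0.02 in B16F0 and 0.09 in B16F10, against -0.02 in both lines in the comparison set. The fit had a biological coefficient of variation of 2.78%, so that small changes passed the threshold. A change of at least 1 on the log2 scale was reached by 2 of the 76 genes in B16F0 and 6 in B16F10. It was reached by 244 and 333 of the 9355 genes of the comparison set and by 2928 and 3246 of the 18338 genes tested.

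In both B16 lines, 21 genes rose (27.6% of the set), where 16.7% of all genes tested and 25.7% of the comparison set rose in both. The 15 genes that fell in both were 19.7% of the set, where 17.2% of all genes tested and 30.1% of the comparison set fell in both.

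Slc4a4, a sodium bicarbonate cotransporter of pH control, rose in both lines. It was at 16 and 15.6 CPM in untreated B16F0 and 29.5 and 24.5 CPM with SX-682 (log2 0.79, SE 0.0876, adjusted p = 6.5e-09). In B16F10 it was at 11.8 and 10.7 CPM untreated and 19.2 and 21 CPM with SX-682 (log2 0.82, SE 0.092, adjusted p = 6.8e-09). Lmx1b rose from 15 and 15.2 CPM to 23.6 and 24.3 CPM in B16F0 and from 7.56 and 8.81 CPM to 14.4 and 13.4 CPM in B16F10 (log2 0.68 and 0.74). In neither gene did the treated and untreated libraries overlap within a line, which was a condition for naming the genes of largest change.

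Isoc2b, a protein with an isochorismatase domain, rose by 0.67 and 0.88 on the log2 scale in B16F0 and B16F10. Procr, the endothelial protein C receptor, rose by 0.52 and 0.56, from 42.1 and 39.5 CPM to 57.3 and 58.3 CPM in B16F0 and from 13.4 and 14.7 CPM to 20.2 and 21.9 CPM in B16F10. Akip1 rose by 0.51 and 0.69. St5, whose start lies beside that of Akip1, had a log2 change of 0.17 in B16F0 (adjusted p = 0.000234) and of 0.07 in B16F10 (adjusted p = 0.095). Phyh rose by 0.51 and 0.56.

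Slc24a4, a potassium-dependent sodium-calcium exchanger, had the largest fall. It was at 14.5 and 16 CPM in untreated B16F0 and 5.63 and 5.46 CPM with SX-682 (log2 -1.44, SE 0.116, adjusted p = 9.2e-12). In B16F10 it went from 8.04 and 7.64 CPM to 2.4 and 2.6 CPM (log2 -1.66, SE 0.13, adjusted p = 3.7e-12). Prdm16 went from 162 and 165 CPM to 77 and 77.2 CPM in B16F0 and from 127 and 126 CPM to 73.4 and 79.1 CPM in B16F10, so that the treated libraries of the lines overlapped (log2 -1.07 and -0.74). Asb13, a SOCS box protein, fell by 0.94 and 0.96 on the log2 scale in B16F0 and B16F10.

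Marcksl1 went from 71.3 and 73.3 CPM to 41.2 and 41.9 CPM in B16F0 and from 93.7 and 92.3 CPM to 45.8 and 47.3 CPM in B16F10 (log2 -0.78 and -1.01). Gpr143 went from 24.9 and 24.5 CPM to 15 and 15.6 CPM in B16F0 and from 72.7 and 74 CPM to 39.9 and 36.9 CPM in B16F10 (log2 -0.68 and -0.95). Mitf, the master transcription factor of melanocytes, fell by 2.11 on the log2 scale in B16F0 and fell by 1.14 in B16F10. Ak4 fell by 0.66 and 1.13. Tet2 fell by 0.56 and 0.54 and was at 15.1 to 16.3 CPM in the 4 B16 libraries with SX-682.

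**Figure D4:**
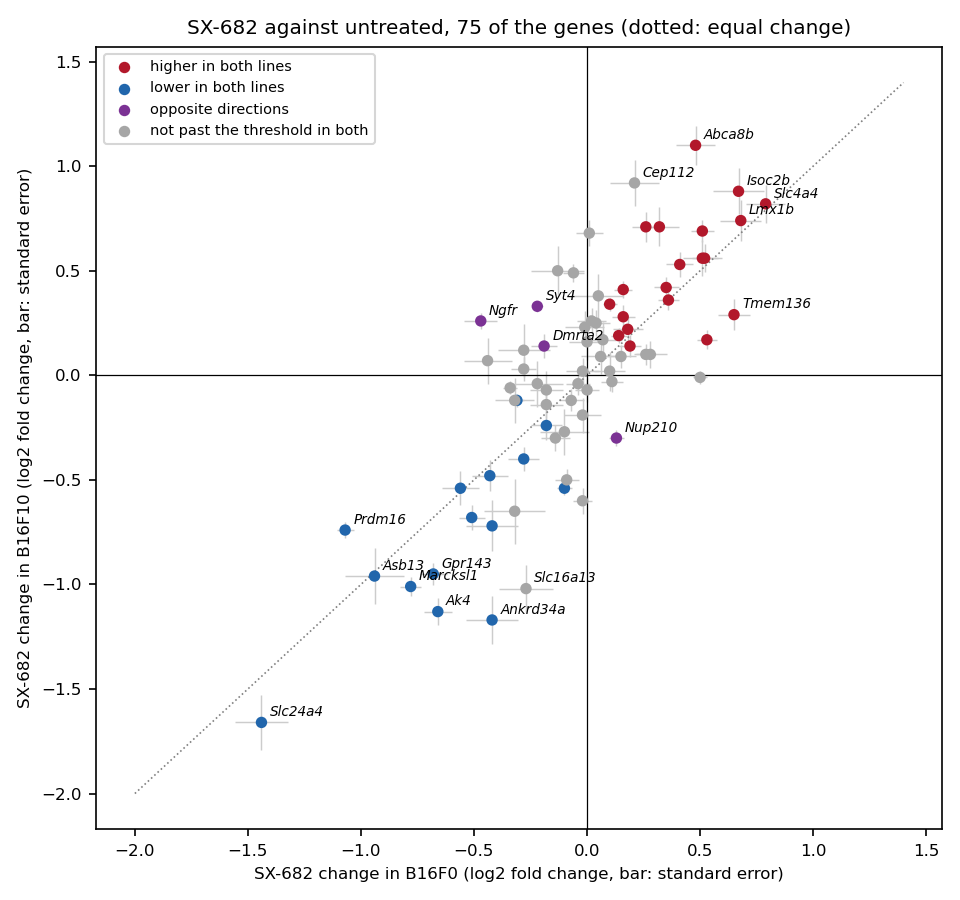
SX-682 change in B16F0 (horizontal axis) against that in B16F10 (vertical axis) for 75 of the 76 genes, as log2 fold changes with standard errors, colored by the calls in both lines. Of the genes shown, 15 are lower in both lines and 4 moved in opposite directions.

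Of the patterning transcription factors, Lmx1b and Tbx15 rose in both lines. Of the 66 genes of that family in the comparison set outside the 76, 26 rose and 12 fell in both. Among channels and transporters, Abca8b and Slc4a4 rose and Slc24a4 fell in both lines, while 57 of the 220 others rose and 78 fell. Of the 4 zinc-finger genes, Prdm16 fell in both lines, and 97 of the 282 others rose and 54 fell. Of the 3 surface receptors, Il3ra, the alpha chain of the interleukin-3 receptor, rose by 0.35 and 0.42 on the log2 scale and Gpr143 fell, while 29 of the 93 others rose and 28 fell.

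The change with SX-682 itself differed between B16F10 and B16F0 for 30 genes. For 18 genes (23.7% of the set) the change was higher in B16F10, where 15.3% of all genes tested and 24.5% of the comparison set were called so, and for 12 genes (15.8%) it was lower, where 14.9% and 25.4% were. Dmrta2, Ngfr, Nup210 and Syt4 passed the threshold in opposite directions in the B16 lines, which is 5.26% of the set, against 3.31% of all genes tested and 5.64% of the comparison set. Without the first SX-682 library of B16F0, only 2 of the 4 kept opposite calls.

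Calls in a single B16 line were made for 10 genes in B16F0 and 14 in B16F10, and 12 genes were called in neither. For these counts and their parts below, no matching share over all genes is given, so they only describe the list. The difference of the changes passed its own test for 4 of the 10 (Gja3, Gjb2, Pde11a and Thap3) and for 8 of the 14 (Cep112, Fah, Fam174b, Pros1, Slc16a13, Slc49a4, Trim59 and Zfp647), and for the others a difference between the lines was not shown. Pde11a went from 143 and 150 CPM to 209 and 202 CPM in B16F0 and was at 179 and 181 CPM untreated and 181 and 180 CPM with SX-682 in B16F10 (difference -0.52, adjusted p = 2.4e-10). Fah went from 18.7 and 18.5 CPM to 30.8 and 29.2 CPM in B16F10 and was at 28.4 and 26.8 CPM untreated and 27.6 and 27.5 CPM with SX-682 in B16F0 (difference 0.66, adjusted p = 5.6e-07). The connexin genes had log2 changes of -0.28 for Gja3 and -0.34 for Gjb2 in B16F0 and of 0.03 and -0.06 in B16F10, where neither passed the threshold. In the other pair, Cep112 had log2 changes of 0.21 in B16F0 (adjusted p = 0.111) and 0.92 in B16F10 (adjusted p = 2.1e-08) and Axin2 of -0.28 (adjusted p = 0.0427) and 0.12 (adjusted p = 0.473).

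Among genes called in both lines, Abca8b rose by 0.48 in B16F0 and by 1.10 in B16F10 on the log2 scale, the largest rise of the set in a single line, from 8.82 and 8.7 CPM to 17.7 and 20.3 CPM in B16F10. Ankrd34a fell by 0.42 and 1.17, and Tmem136 rose by 0.65 and 0.29. The 12 genes called in neither line had log2 changes between -0.22 and 0.17, and among them were Phf19, Lhfpl4, Ddx19b, Zfp518b and Hsd17b11.

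Ngfr fell from 9.17 and 8.62 CPM to 6.22 and 6.57 CPM in B16F0 (log2 -0.47) and rose from 101 and 101 CPM to 121 and 125 CPM in B16F10 (log2 0.26). The difference of the changes was 0.73 on the log2 scale (adjusted p = 4.2e-08). Syt4 fell from 719 and 711 CPM to 629 and 582 CPM in B16F0 and rose from 584 and 585 CPM to 750 and 740 CPM in B16F10, a difference of 0.56 (adjusted p = 4.9e-13). Nup210, a nuclear pore membrane protein, went the other way, from 199 and 192 CPM to 218 and 205 CPM in B16F0 and from 65.2 and 65.1 CPM to 54.3 and 53 CPM in B16F10, a difference of -0.42 (adjusted p = 1.3e-07). Dmrta2, a DM-domain transcription factor, fell by 0.19 in B16F0 and rose by 0.14 in B16F10, with adjusted p-values of 0.00739 and 0.0331. The last 2 of these genes were those that lost a call without that library.

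**Figure D5:**
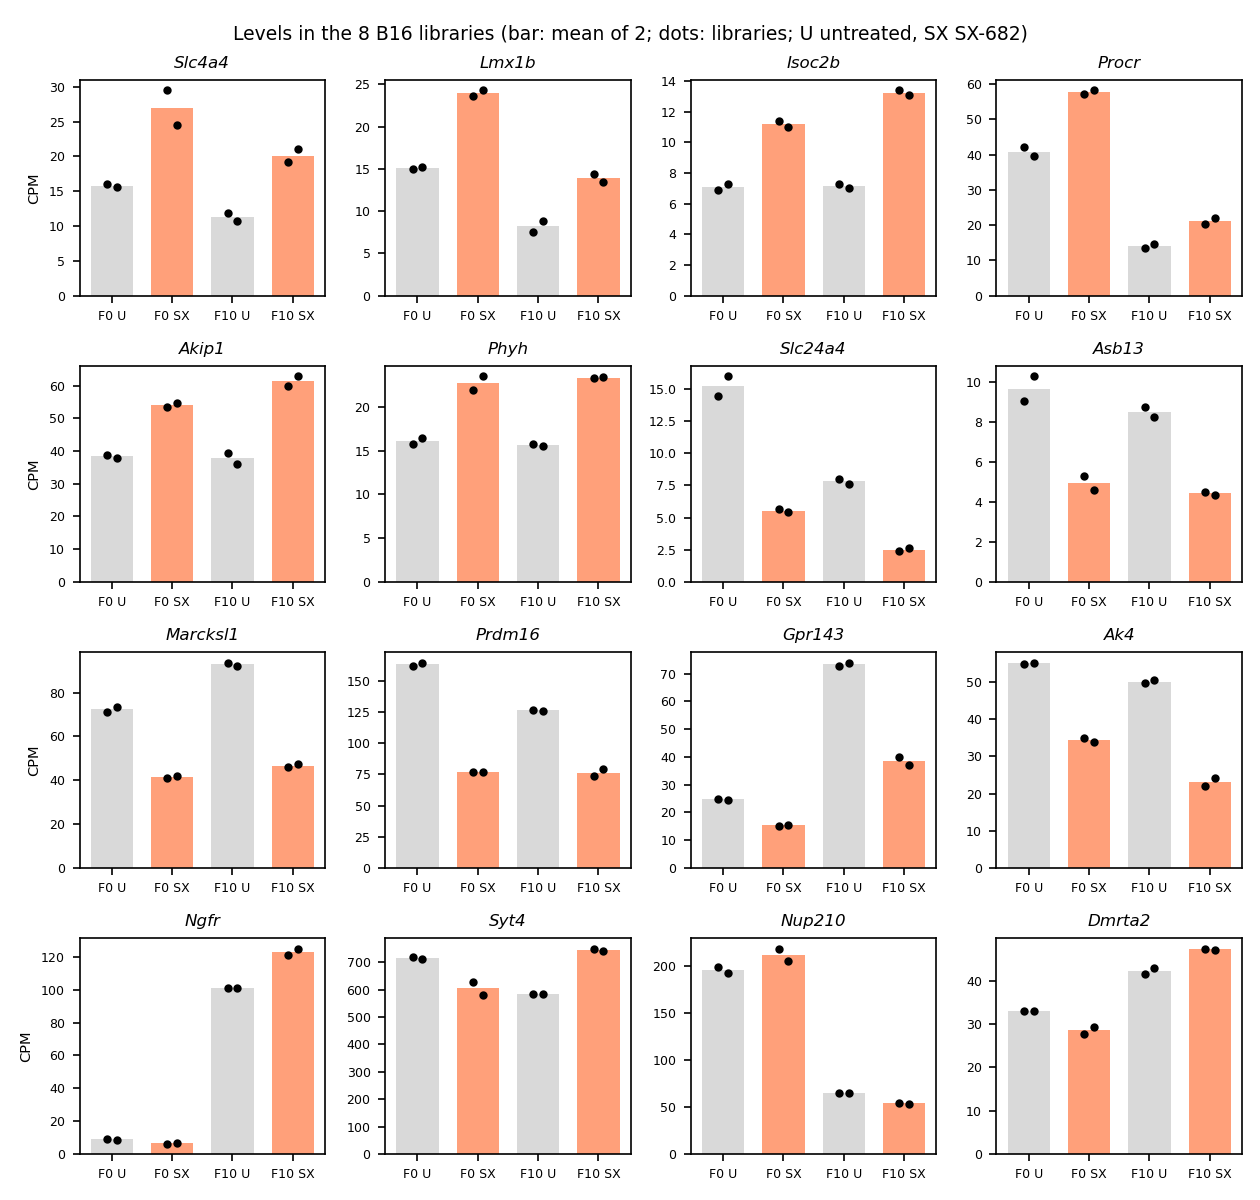
CPM (vertical axis) in the 8 B16 libraries for the 6 genes with the largest rises and the 6 with the largest falls called in both lines, ranked by the smaller of their 2 changes, and for the 4 that moved in opposite directions. Bars are means of 2 libraries and dots are libraries. Slc24a4 falls from 14.5 and 16 to 5.63 and 5.46 CPM in B16F0, and Ngfr is near 100 CPM only in B16F10.

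In Melan-A, the whole set stayed near 0 with SX-682. The summed level was 5.6 and 5.86 CPM with SX-682 against 4.14 and 4.25 CPM without, the highest value of any of the 76 genes in an SX-682 library was 0.675 CPM, and the largest count was 47. The rule bounded the untreated counts from above, so that a gene had more room to rise than to fall. The filter on low expression was run over all 12 libraries, and these genes met it in B16 whatever their Melan-A counts. Their shares of calls in Melan-A are therefore only a description beside those of all genes tested. Called higher were 10 genes (13.2% of the set, where 23.4% of all genes tested rose), and 5 were called lower (6.58%, where 24.7% fell). All of these calls rest on at most 47 counts, and a separate fit of the Melan-A libraries called 5 higher and 0 lower.

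Raet1d had 3 and 5 counts in untreated Melan-A and 37 and 47 counts with SX-682 (log2 3.62, SE 0.394, adjusted p = 5.1e-09). Its overlapping neighbor Raet1e was at 15.7 and 17.4 CPM untreated and 20.5 to 21.1 CPM with SX-682, a log2 change of 0.31. Pde11a had 8 and 8 counts and then 18 and 31, Ngfr 5 and 4 and then 15 and 19, and Fbln1 5 and 7 and then 16 and 16. These genes and Prdm16, with 16 and 14 and then 23 and 15 counts and no call, were the only members at 0.2 CPM or more in both SX-682 libraries of Melan-A.

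Fah went from 2 and 2 counts to 7 and 9, which is at least 3.26-fold higher against the floor. Zfp518b, with 0 counts untreated and 4 and 5 with SX-682, was at least 1.83-fold higher. The call of Gpm6a rests on 7 counts in 1 library and 0 in the other. Of the calls of a fall, Gjb2 had 10 and 9 counts untreated and 2 and 0 with SX-682 (at least 2.59-fold lower), Zic5 had 6 and 5 and then 0 and 0 (at least 1.5-fold lower), and Tet2 had 11 and 2 and then 0 and 0 (at least 1.8-fold lower). In B16F0, Ngfr, Fbln1 and Raet1d fell with SX-682 while Pde11a rose by 0.50 on the log2 scale. In B16F10, Ngfr rose, Fbln1 fell, and Raet1d and Pde11a were not called.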

How the data were processed

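RNA-seq libraries of 3 mouse lines, untreated and with SX-682, were used, with 2 libraries in each of 6 groups taken from the labels. The authors deposited unnormalized read counts for 34513 genes with gene lengths and mm10 coordinates, and the submitters' processing notes name cutadapt, STAR and DESeq2 without versions. The counting program and its strand setting are not given in the sources used here.

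CPM was the count over the library total, and the 76 genes were selected on untreated CPM (at least 5 in B16, under 0.2 in Melan-A). The members, gene families and tests were chosen with earlier results of these data known. All 12 libraries were fitted with 6 groups in edgeR 4.0.16 (R 4.3.3) by the quasi-likelihood F-test, scaled by TMM, after edgeR's filter on low expression had kept 18338 genes, all 76 among them. The prior count was 0.125, and p-values were adjusted by Benjamini-Hochberg over all genes tested, at 0.05. Every adjusted p comes from this fit, and standard errors were derived from its F statistic. The fit had 6 residual and 21.9 prior degrees of freedom. An exact two-sided permutation test of 2 against 2 libraries cannot give a p under 0.333. The floor of 3 counts per library covers counting error only, and the scripts were tested on simulated counts.

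Alternatives were DESeq2 1.42.0, RLE scaling, no filter, fits of each line alone, a replicate block, each library left out, stricter thresholds, and other limits of the rule. Leaving out libraries when choosing the genes was added after the data were seen. Named genes were the 10 highest per kilobase in untreated B16, the 6 largest rises and 6 largest falls called in both B16 lines without overlap (by the smaller of the 2 changes), those at 0.2 CPM or more in both SX-682 libraries of Melan-A, the closest pairs, the 4 most and least expressed in B16F10 relative to B16F0, the 3 nearest each limit, up to 4 per family, and those called in opposite directions. Other named genes were chosen after their values were seen. Results of 1 gene are not reported here. RefSeq promoter windows were matched by symbol, taking the start nearest the deposited one, for 82.9% of the set and 81.7% of the comparison set.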

Additional observations from a re-analysis of the deposited data

Results flagged for a closer look

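The SX-682 change differed between B16F10 and B16F0 for 30 of the 76 genes by the test of the difference itself. It was higher in B16F10 for 23.7% of the set and lower for 15.8%. The same shares were 24.5% and 25.4% in the comparison set, and 15.3% and 14.9% over all genes tested. The set was thus not above its comparison set in either direction. Among the genes named above, the log2 change in B16F10 minus that in B16F0 was 0.73 for Ngfr, 0.56 for Syt4, 0.34 for Dmrta2 and 0.32 for Prdm16. It was -0.47 for Ak4, -0.42 for Nup210, -0.27 for Gpr143 and -0.23 for Marcksl1. Prdm16, Ak4, Gpr143 and Marcksl1 fell in both lines and differed in the size of the fall.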

How the results depend on the processing

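The number of genes chosen was 120 with Melan-A under 0.5 CPM, 121 with B16 at 2 CPM or more, and 26 with at most 3 counts in each untreated Melan-A library. It was 77 to 88 when each untreated library was left out, a choice added after the data were seen. With a limit of 2 Mb, 13 genes had another member nearby. A log2 change of at least 1 left 0 genes higher and 2 lower in B16F0, 1 higher and 5 lower in B16F10, 0 higher and 1 lower in both lines, and 0 in opposite directions. It left 0 genes with a higher and 0 with a lower change in B16F10 than in B16F0, and 9 higher and 12 lower in untreated B16F10. In Melan-A, the 5 falls became 3 without the filter on low counts, 3 at an adjusted p of 0.01 and 0 in a separate fit, which called 5 rises. The count of genes called in opposite directions lay between 2 and 4 when each library was left out. The causes were not tested, apart from the stricter limits themselves. The replicate numbers did not pair the libraries (correlations of -0.0276 to -0.00892), and with a replicate block 25 genes rose and 26 fell in B16F0. DESeq2, RLE scaling and the block kept every count of calls given in the report within 1.5 times. No named gene's log2 change was reversed. Counts of at most 47 in Melan-A limit every value there.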
